A study of Homo sapiens with 2 samples.

Results

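The genes described here are the salt-inducible kinases SIK1, SIK2 and SIK3, a near-identical copy of SIK1 listed under the clone name CH507-42P11.8, and the LKB1 kinase complex: STK11, which encodes LKB1, with its partners STRADA, STRADB, CAB39 and CAB39L. They were taken by name and make up 9 of the 43337 genes in the deposited table. RNA had been sequenced from 2 libraries of cells labelled BT549, a human breast cancer line of the triple-negative type (without oestrogen and progesterone receptors or HER2 amplification). Both libraries carry a SIK1 construct, which the series describes as overexpressed: wild-type SIK1 (SIK1_WT, 1 library) or SIK1 with aspartate in place of the serine at the residue the label numbers (SIK1_S435D, 1 library). Cells without a construct were not analysed here, and the labels do not say how the construct was delivered, what promoter drives it or whether the cells are a clone. Each group being 1 library, no test could be made and no difference has a replicate check, and every interval below covers counting error only.

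LKB1 is a serine/threonine kinase that acts as a tumour suppressor. It is held active by the pseudokinase STRAD (STRADA or STRADB), which binds it, and by the scaffold protein MO25 (CAB39 or CAB39L). The complex phosphorylates a threonine in the activation loop of AMPK and its relatives, the SIK kinases among them. SIK kinases in turn phosphorylate CRTC coactivators of CREB and class IIa histone deacetylases, which keeps them in the cytoplasm, and SIK1 has been linked in breast cells to the loss of anchorage-independent survival. The series title names phosphorylation of SIK1 by Akt1, and aspartate is commonly used to imitate a phosphorylated serine.

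The codon of the S435D site in SIK1 is shown first because it is what the labels say differs between the libraries. The reference letters below come from the GENCODE release 29 transcript and lie in a single coding exon (exon 11) at chr21:43419151-43419210 of GRCh38, minus strand, with the serine codon of the site (last) and the arginine codons 430 and 432 in capitals.
SIK1: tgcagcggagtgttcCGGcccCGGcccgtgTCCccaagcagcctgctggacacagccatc
Akt is known to favour a serine or threonine that follows a pair of arginines spaced as these are. That pattern occurs at 1 place in the 783 codons of SIK1, where it ends at the S435D site. The same search found 1 such place in the 926 codons of SIK2 and 2 in the 1321 codons of SIK3. The deposited values are per gene and hold no base-level information, so they do not show which codon the SIK1 reads carried.

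The site on which the LKB1 complex acts is given next, since it joins the 2 groups of genes. The 45 bases around the threonine codon of the activation loop (capitals) were read from GENCODE release 29 for SIK1 (codon 182, chr21:43421297-43421341, minus strand), SIK2 (codon 175, chr11:111700912-111700956, plus strand) and SIK3 (codon 221, chr11:116897247-116897291, minus strand), all on GRCh38.
SIK1: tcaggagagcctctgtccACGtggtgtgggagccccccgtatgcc
SIK2: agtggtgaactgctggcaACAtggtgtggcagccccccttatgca
SIK3: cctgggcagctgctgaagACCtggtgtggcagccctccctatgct
The 3 genes share the loop but not long stretches of identical bases. No window of 50 bases of the SIK1 transcript was found in SIK2 or SIK3 (0 windows in each), so reads of that length can tell these genes apart.

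SIK1 and its clone-named copy cannot be told apart over most of their length. The copy lies at chr21:6111134-6123739 on the plus strand, where GENCODE release 29 names the protein-coding gene SIK1B, and SIK1 lies at chr21:43414515-43427128 on the minus strand as the table gives it. Their coding sequences of 2349 bases differ at 2 positions, C1844T and C1848T (SIK1 base, position counted from 1 at the start codon, base of the copy), of which the first changes the amino acid. The 60 bases that hold both, with the differing bases in capitals, are at chr21:43417643-43417702 (minus strand) and chr21:6120559-6120618 (plus strand) of GRCh38.
SIK1: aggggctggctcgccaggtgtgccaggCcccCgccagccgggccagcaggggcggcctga
CH507-42P11.8: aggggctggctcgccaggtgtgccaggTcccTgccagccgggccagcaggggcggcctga
The bases around the S435D codon are the same in both. Of all windows of 100 bases in the SIK1 coding sequence, 95.4% occur unchanged in the copy, and 86.8% of those in the whole transcript do. How reads that match both places were assigned is not given in the sources used here, so the level of each of the pair is uncertain and their summed reads are given beside them. If such reads were counted at both places, the sum counts them repeatedly. The intervals of the sum and of its division would then be too narrow.

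The libraries held 22366506 (WT) and 23520828 (S435D) reads assigned to genes, recovered from the deposited RPKM (reads per kilobase of gene, scaled to the library's assigned reads). The labelled cell type was checked against markers of mesenchymal breast cancer lines, of which 6 of 10 reached a mean of 1 RPKM. VIM (116 and 113 RPKM in the WT and S435D libraries) and MSN (81.1 and 85.3 RPKM) were high, but CD44 had 8 reads in each library and AXL 17 and 20, so these defining markers were near 0. Among the receptor and epithelial genes looked up, PGR had 0 reads in both libraries and ESR1 1 and 0. The epithelial genes KRT8 (45.5 and 47.7 RPKM), KRT18 (37.5 and 41.4 RPKM) and EPCAM (2.48 and 2.11 RPKM) were detected. ERBB2, which encodes HER2, was also detected (2456 and 2439 reads). The triple-negative type is not defined by the level of ERBB2 RNA, so these reads were taken neither for nor against the label. CDH1, the epithelial cadherin, was low at 0.651 and 0.798 RPKM, as in mesenchymal lines. The leukocyte marker PTPRC and the endothelial marker PECAM1 had 0 reads in both libraries, KRT5 had 0 and 1, and COL1A1 had 659 and 660. The markers of mesenchymal lines thus went in part with and in part against the label, in both libraries alike, and the cells are called here only by their label.

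SIK1 was by far the highest of the 3 SIK kinases in both libraries. It had 41548 reads and 380 RPKM with WT SIK1, and 48462 reads and 422 RPKM with S435D, which placed it 138th and 124th among all 43337 genes. The copy stood above it in both libraries, with 48414 reads (450 RPKM) with WT SIK1 and 58978 reads (522 RPKM) with S435D. Together the pair took 0.402% (95% Clopper-Pearson interval 0.400 to 0.405) of all WT reads and 0.457% (0.454 to 0.460) of all S435D reads. The coding sequence makes up 48.1% of the SIK1 length used in the table, so an RPKM value spreads any reads of a construct limited to the coding part over a longer gene. Reads of the construct and of endogenous SIK1 are not separated in these values.

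SIK1 was slightly higher with S435D. Its fold (ratio of RPKM, S435D over WT) was 1.11, with a 95% exact conditional binomial interval of 1.09 to 1.12, and that of the copy was 1.16 (1.14 to 1.17). Over the summed reads of both, 89962 with WT SIK1 and 107440 with S435D, the fold was 1.14 (1.13 to 1.15). These intervals lie above 1, but they hold no spread between cultures. On the log2 scale with 0.5 RPKM added to each value, the ratio was 0.15 for SIK1 and 0.21 for the copy; with the RPKM totals of both libraries made equal it was 0.087 and 0.15. Of 13290 genes averaging at least 1 RPKM, called expressed here, 1577 had a larger ratio than SIK1 (11.9%) and 865 a larger ratio than the copy (6.51%). The position was alike among the 588 genes averaging at least 100 RPKM, a set chosen after the values were seen: 70 had a larger ratio than SIK1 and 36 a larger ratio than the copy. The middle 95% of those genes ran from -0.19 to 0.37. Mitochondrial reads also made up more of the S435D library (5.15% against 4.32%). Without mitochondrial genes in the library size, the log2 ratio was 0.16 for SIK1 and 0.22 for the copy. Why the mitochondrial share differed was not tested.

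**Figure D1:**
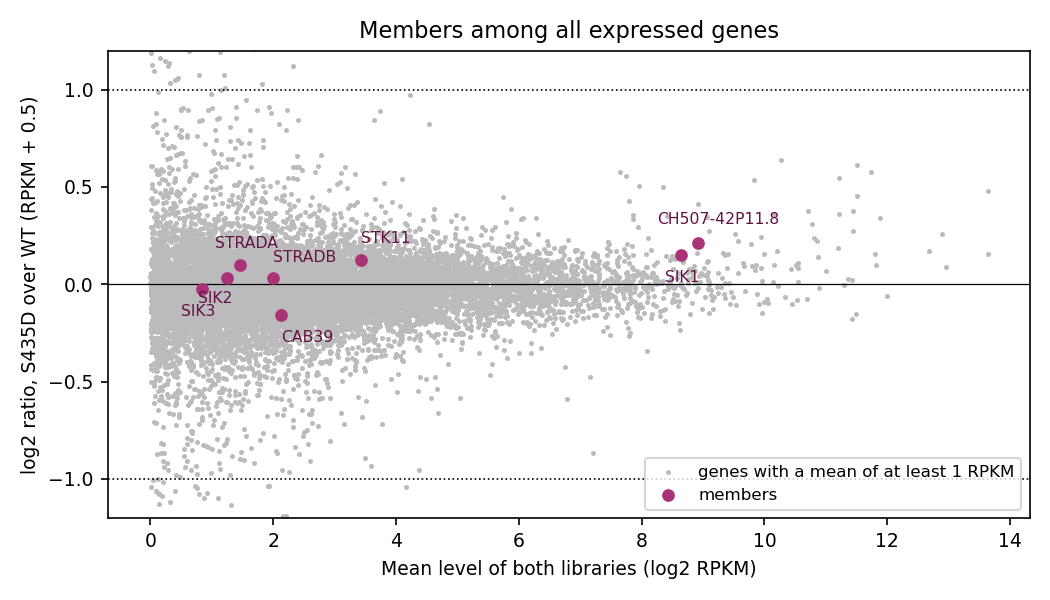
Log2 ratio of S435D over WT (RPKM plus 0.5) against the mean level of both libraries (log2 RPKM), for genes averaging 1 RPKM or more (grey) and the 8 expressed members (purple), with dotted lines at a 2-fold difference; 72 genes lie beyond the plotted log2 ratio range of 1.2 either way. SIK1 and its copy sit far to the right of the other members and above 0, at 0.15 and 0.21, and all members lie well inside the dotted lines.

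The reads of the pair were divided a little differently in the libraries. The copy held 53.8% of the pair's reads (53.5 to 54.1) with WT SIK1 and 54.9% (54.6 to 55.2) with S435D, so its RPKM was 1.18 and 1.24 times that of SIK1. Other genes with a second copy on chromosome 21 were looked up after the values were seen. CBSL, the copy of the cystathionine beta-synthase gene CBS, held 56.3% (55.2 to 57.4) of its pair's reads with WT SIK1 and 57.0% (55.9 to 58.1) with S435D. U2AF1L5, the copy of the splicing factor gene U2AF1, held 9.06% (8.53 to 9.60) and 8.32% (7.83 to 8.83), and SMIM11B held 2.31% (1.59 to 3.25) and 2.04% (1.36 to 2.93) of its pair with SMIM11A. The division of reads between copies therefore varied widely from pair to pair, and far less between the libraries. At the deposited scaling, CBS and U2AF1, at folds of 1.001 (0.955 to 1.05) and 1.02 (0.988 to 1.04), had intervals that include 1, unlike SIK1. The lower bound of U2AF1 is close to 1, and neither gene was examined under the other scalings. The contrast with SIK1 is therefore given for the deposited scaling only, and whether it holds under the others was not examined.

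**Figure D2:**
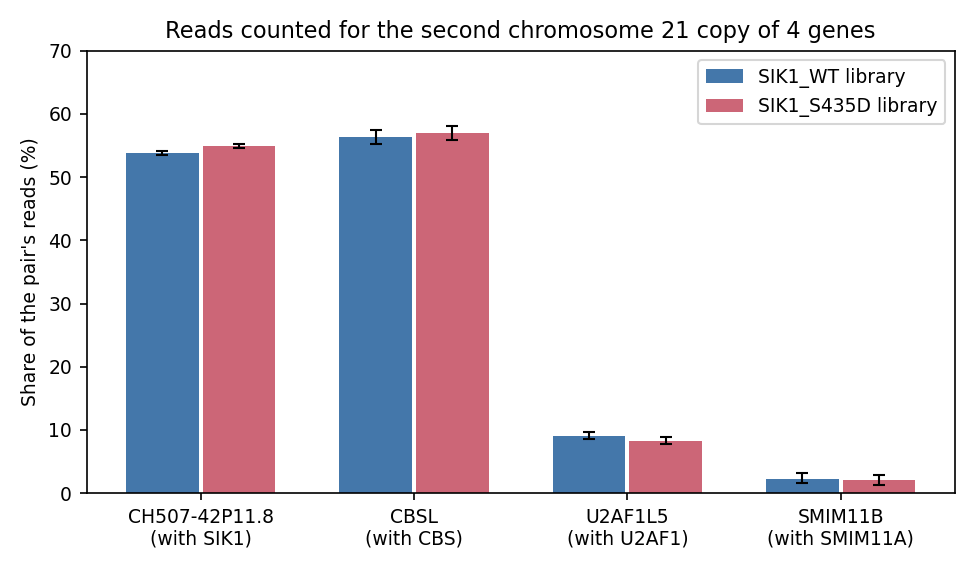
Share of a gene pair's reads (percent, axis from 0) counted for the second copy on chromosome 21, for SIK1 and 3 other duplicated genes, in the WT (blue) and S435D (red) libraries; bars are single libraries and lines are 95% Clopper-Pearson intervals. The SIK1 copy holds 53.8% and 54.9%, close to CBSL, whereas U2AF1L5 and SMIM11B hold under 10% of their pairs.

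SIK2 and SIK3 were expressed at low levels that differed little between the libraries. SIK2 (chr11:111602391-111730853), which phosphorylates CRTC coactivators as SIK1 does, had 514 reads (2.35 RPKM) with WT SIK1 and 556 reads (2.41 RPKM) with S435D, a fold of 1.03 (0.911 to 1.16). SIK3 (chr11:116843402-117098437), which phosphorylates class IIa histone deacetylases and is the longest of the family, had 441 reads (1.81 RPKM) and 454 reads (1.77 RPKM), a fold of 0.979 (0.857 to 1.12). Both intervals include 1, and they hold counting error only, with no spread between cultures. SIK2 was 1.30 times the level of SIK3 per length with WT SIK1 and 1.37 times with S435D. SIK2 and SIK3 together made up 0.497% of the RPKM summed over the family and the copy with WT SIK1 and 0.441% with S435D. SIK2 shares 150 exon bases with PPP2R1B, which encodes a scaffold subunit of protein phosphatase 2A on the opposite strand and had 603 and 608 reads. Whether reads were counted by strand is not known here, so reads on such shared bases cannot be told apart. SIK3 shares none with another listed gene.

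STK11 (chr19:1177558-1228435), which encodes LKB1, was the most abundant member of its complex by the reads as counted. It had 1991 reads (10.3 RPKM) with WT SIK1 and 2293 reads (11.3 RPKM) with S435D. The fold was 1.10 (1.03 to 1.16), whose interval lies above 1; with both RPKM totals made equal it was 1.05 (0.988 to 1.11), which includes 1. Of the 13290 expressed genes, 1962 (14.8%) had a larger log2 ratio than the 0.13 of STK11. A stretch of 149 of its exon bases overlaps CBARP on the opposite strand, which had 167 and 171 reads. SIK1 stood 36.9 times above STK11 per length with WT SIK1 and 37.4 times with S435D.

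Both STRAD pseudokinases were detected, STRADB above STRADA by the reads as counted. STRADB (chr2:201387858-201480846) had 287 reads (3.96 RPKM) with WT SIK1 and 309 reads (4.05 RPKM) with S435D, a fold of 1.02 (0.869 to 1.21). STRADA (chr17:63702832-63741970, minus strand) had 396 reads (2.64 RPKM) and 452 reads (2.86 RPKM), a fold of 1.09 (0.946 to 1.25). Both intervals include 1. STRADB was 1.502 times the level of STRADA per length with WT SIK1 and 1.42 times with S435D. The level of STRADA is the less certain of these, because 1970 of its 6717 exon bases (29.3%) also belong to RP11-51F16.8, a clone-named gene on the same strand with 1750 and 1745 reads. That gene runs on into CCDC47, with which it shares its other 158 bases and which had 6746 and 6384 reads. Each base of RP11-51F16.8 thus belongs to STRADA or CCDC47 too, so the reads counted for it lay on shared bases. How many of them lay on the bases shared with STRADA, and whether those were also counted for STRADA, is not known here. STRADA may therefore be understated, and its place below STRADB and STK11 holds only for the reads as counted. STRADB shares 144 bases with TRAK2 on the opposite strand, which had 266 and 292 reads.

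Of the MO25 genes, CAB39 was expressed and CAB39L was not. CAB39 (chr2:230712845-230821075) had 559 reads (4.66 RPKM) with WT SIK1 and 520 reads (4.12 RPKM) with S435D. It was the member with the lowest ratio, at a fold of 0.885 (0.783 to 0.999), an interval that ends just below 1. It reached past 1 with centring on the median of all genes (upper bound 1.02), with a trimmed mean of log ratios (1.02) and without mitochondrial genes in the library size (1.01). CAB39L (chr13:49308650-49444126, minus strand) had 22 reads (0.196 RPKM) and 31 reads (0.263 RPKM), below the limit of a mean of 1 RPKM. Its fold of 1.34 rests on these few reads, and its interval of 0.751 to 2.43 includes 1. CAB39 stood 23.7 times above CAB39L per length with WT SIK1 and 15.7 times with S435D. CAB39 and CAB39L share no exon bases with another listed gene.

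**Figure D3:**
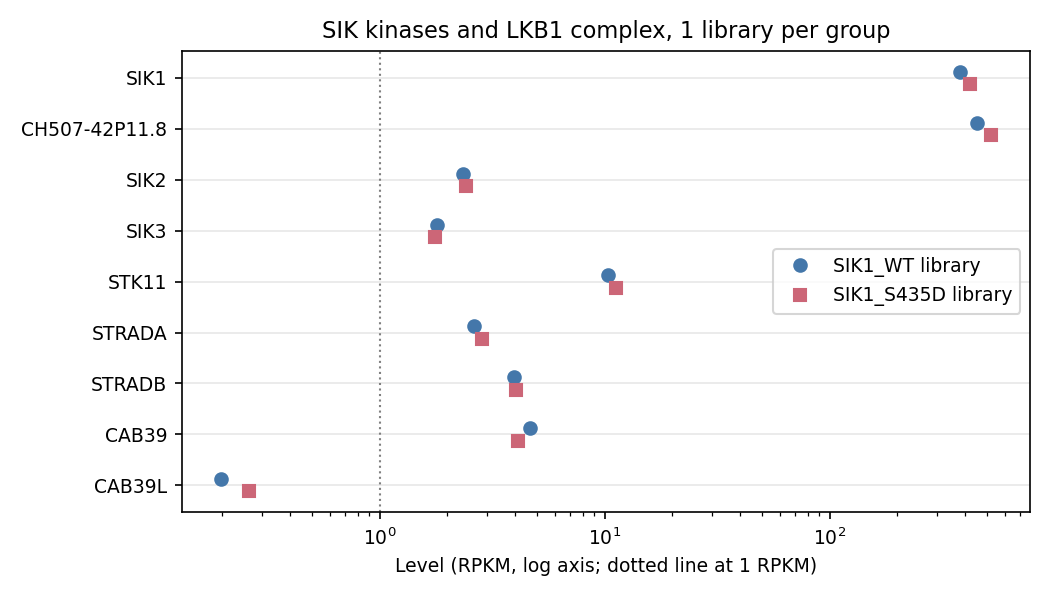
Level of each of the 9 genes in RPKM (log axis) in the WT library (blue circles) and the S435D library (red squares), 1 library per group, with a dotted line at 1 RPKM. SIK1 and its copy lie between 380 and 522 RPKM, STK11 at 10.3 and 11.3, the other expressed genes between 1.77 and 4.66, and CAB39L below 1.

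Per length, the WT library ranked the LKB1 complex as STK11, CAB39, STRADB, STRADA and CAB39L. The S435D library gave the same order, with CAB39 at 4.12 and STRADB at 4.05 RPKM close together. The RPKM of STK11 was 1.56 times that of STRADA and STRADB summed with WT SIK1 and 1.63 times with S435D. This ratio and the place of STRADA in the order hold only for the reads as counted. RP11-51F16.8, which covers 29.3% of the STRADA exon bases, had 1750 and 1745 reads, and STRADA may be understated. Against CAB39 and CAB39L summed, it was 2.12 times with WT SIK1 and 2.57 times with S435D. These are ratios of RNA levels, and protein was not measured in these files.

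No member was past a fixed size of 2-fold. By the log2 ratio, 0 of the 8 expressed members differed by 2-fold or more, beside 0.843% of all expressed genes. At the smaller size of 1.2-fold the count was again 0 of 8, beside 12.3% of all expressed genes. Of the 8, 6 were higher with S435D (SIK1, its copy, SIK2, STK11, STRADA and STRADB) and 2 lower (SIK3 and CAB39), with a median log2 ratio of 0.067, beside 42.9% of expressed genes higher and a median of -0.024. SIK1 and its copy are not independent in this count. The directions of SIK2, SIK3 and STRADB turned with the scaling of the libraries. With both RPKM totals made equal, SIK2 and STRADB were lower (4 of 8 higher, beside 27.6% of expressed genes). SIK3 was higher with centring on the median of all genes (7 of 8 higher, beside 50%). It was also higher with a trimmed mean of log ratios (7 of 8 higher, beside 51.4%). SIK1, its copy, STK11 and STRADA stayed higher and CAB39 stayed lower under each scaling tried.

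The other kinases that LKB1 activates and the substrates of SIK kinases were read from lists chosen with earlier results of these data known. Of 11 AMPK-related kinases outside the SIK family, 9 were expressed. All 9 were lower with S435D, beside 57.1% of all expressed genes, with a median log2 ratio of -0.049. With centring, 2 of them turned higher (50% of expressed genes higher). So did 2 without mitochondrial genes in the library size (46.2%) and 3 with a trimmed mean (51.4%). MARK3, a kinase of microtubule-associated proteins, was the lowest, at 5.25 and 4.39 RPKM, a fold of 0.837 (0.765 to 0.916). PRKAA2, a catalytic subunit of AMPK, followed at 1.25 and 1.11 RPKM (0.893, 0.747 to 1.07). The intervals of the other 7 expressed kinases include 1, and NUAK2 and SNRK were below the limit.

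All 3 CRTC coactivators were expressed, 2 higher and 1 lower, beside 42.9% of expressed genes higher. All 3 were higher with centring (beside 50%) or a trimmed mean (beside 51.4%). CRTC2 was the most abundant, at 16.0 RPKM with WT SIK1 and 16.7 with S435D (fold 1.05, 0.969 to 1.13). CRTC1 stood at 4.21 and 4.56 RPKM (fold 1.08, 0.974 to 1.204) and CRTC3 at 1.17 and 1.16 RPKM. Of 4 class IIa deacetylases, HDAC5 and HDAC7 were expressed and both were higher. HDAC7 had 387 reads with WT SIK1 and 446 with S435D (fold 1.10, 0.954 to 1.26), and HDAC5 1610 and 1788. The intervals of these substrates include 1, except that of HDAC5 with centring (1.003 to 1.15) or a trimmed mean (1.01 to 1.16). Over the 14 expressed genes of the 3 lists, 4 were higher and 10 lower, beside 42.9% of all expressed genes higher. The counts were 7 and 7 with centring (50% of expressed genes higher) and 8 and 6 with a trimmed mean (51.4%). Without mitochondrial genes in the library size they were 6 and 8 (46.2%). Of the 14, 0 were past 1.2-fold, beside 12.3% of all expressed genes. The median log2 ratio was -0.020, close to the -0.024 of all expressed genes.

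**Figure D4:**
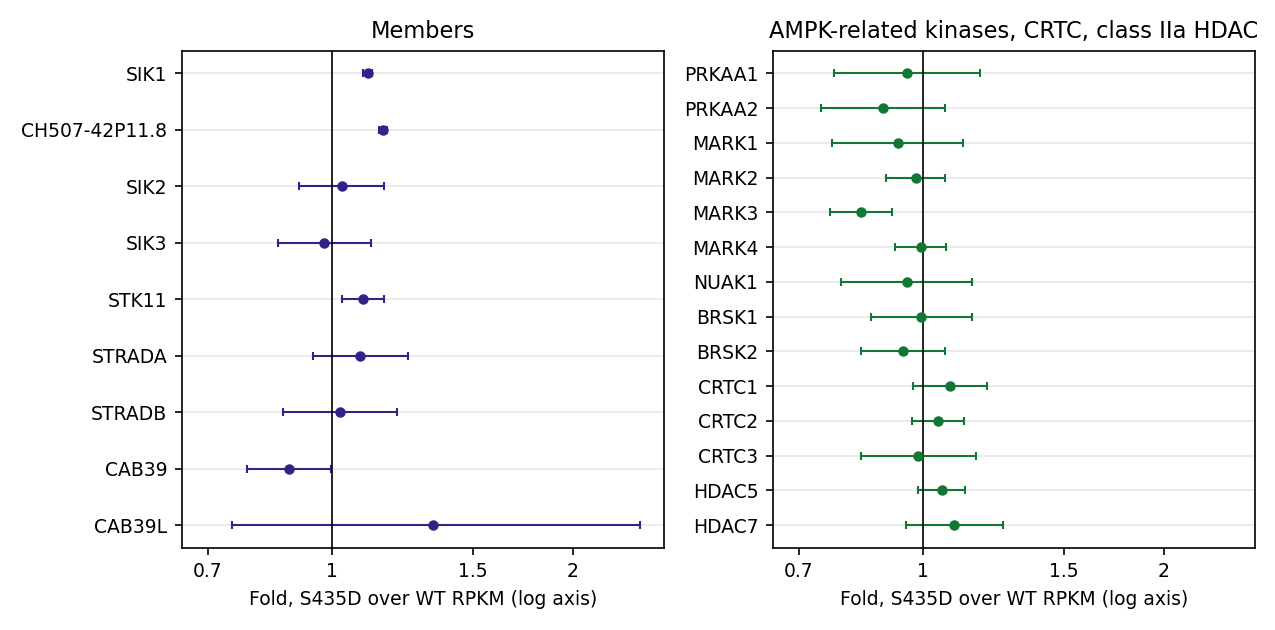
Fold of S435D over WT RPKM (log axis) with 95% exact conditional binomial intervals, 1 library per group, for the 9 genes of the SIK and LKB1 groups (left, including CAB39L, which is below 1 RPKM) and for the 14 expressed AMPK-related kinases, CRTC coactivators and class IIa deacetylases (right). At the deposited scaling, intervals of SIK1, its copy and STK11 lie above 1, those of CAB39 and MARK3 below 1, and the others include 1; under some other scalings those of STK11 and CAB39 include 1 and that of HDAC5 lies above 1.

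The genes most like SIK1 in level were named by their distance on the log2(RPKM plus 0.5) scale over the 2 libraries. RP11-575L7.8, at 390 RPKM with WT SIK1 and 422 with S435D, was nearest (distance 0.038), followed by RP11-161H23.5 at 400.3 and 403 RPKM (0.10) and NUCB1-AS1 at 396 and 399 RPKM (0.10). All are short genes of 390, 680 and 433 bases, and with 2 libraries the measure compares little more than the level.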

How the data were processed

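The values are RPKM per gene in 2 libraries, deposited by the authors in 1 table beside each gene's exon positions, strand and length, per the file headers. Which aligner, counter, strand setting, annotation and build were used is not given in the sources used here; 7 of the 9 genes had the same start and end as in GENCODE release 29 (GRCh38), and the other two (SIK1 and STRADA) lay at the same place with other ends. Whole reads were recovered from RPKM times length, of which 100% of values above 0 were whole multiples of 1 step per library within 0.01 reads. At a length of 2 kb, 1 read equals 0.0224 RPKM (WT) or 0.0213 RPKM (S435D).

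Folds are RPKM ratios; their 95% intervals are exact (Clopper-Pearson, conditional on the summed reads of a gene). The log2 ratio has 0.5 RPKM added to each value, which understates differences of low genes; genes averaging at least 1 RPKM were called expressed. There was no test. The genes, lists and rules were chosen with earlier results of these data known. Named genes were all members, list genes past 1.2-fold or among the 2 highest and 2 lowest, genes overlapping a member, the 3 nearest to SIK1 in level and the cell type markers; others were named after their values were seen. The calculation was tested on simulated data. Alternatives were other pseudocounts, filters on low values and library scalings. Software was SciPy 1.17.1, pandas 2.3.3, numpy 2.4.6 and matplotlib 3.10.9 under Python 3.11.15.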

Additional observations from a re-analysis of the deposited data

How the results depend on the processing

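No paired analysis was possible because each group has 1 library. Over 9 alternatives (pseudocounts of 0.1 and 1 RPKM, no filter and a mean of at least 5 RPKM, and 5 scalings), the counts of members past 2-fold and past 1.2-fold stayed at 0. The shares of all genes counted ran from 0.0760% to 1.33% past 2-fold and from 6.11% to 15.5% past 1.2-fold. CAB39L was counted only with no filter, at a log2 ratio of 0.13 with 0.5 RPKM added. With 0.1 RPKM added its log2 ratio was 0.29, past 1.2-fold, but the filter left it out of that count. The log2 ratio of SIK1 was 0.17 when centred on the median, 0.18 with a trimmed mean of log ratios and 0.087 with equal RPKM totals, against 0.15; for SIK1 and its copy summed it was 0.21, 0.22 and 0.12 in that order, against 0.18. At a mean of at least 5 RPKM, 3 members were left (SIK1, its copy and STK11), 3 of them higher, beside 43.7% of all genes at that limit. The median of the kinase and substrate lists ran from -0.076 to 0.027 and had the other sign under 3 alternatives. Scaling moved the median of all expressed genes to between -0.080 and 0.0047. Depth limits the low members: the 22 and 31 reads of CAB39L allow folds from 0.751 to 2.43.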
